A study of Mus musculus with 3 samples.

Results

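Mrgprd-gated nuclei are those of mouse dorsal root ganglion (DRG) neurons that hold transcripts of non-peptidergic nociceptors, the unmyelinated sensory neurons marked by the receptor gene *Mrgprd*. A kept nucleus is a barcode with more than 1000 detected genes. Members were chosen by measured values, namely at least 0.5% of unique molecular identifiers (UMIs, each counting 1 captured transcript) from *Malat1*, a long non-coding RNA of the nucleus, and marker counts. A nucleus was gated when it held 5 or more UMIs from at least 3 of 6 genes (*Mrgprd*, *Lpar3*, *Grik1*, *P2rx3*, *Htr4* and *EU599041*), and when their sum was at least 2 times that over 7 genes of other neuron classes (*Tafa4*, *Adcyap1*, *Gfra3*, *Nxph1*, *Chrna7*, *Trpm8* and *Il31ra*). The gate held 1378 of 19259 kept nuclei, 777 in the adult library, 333 in aged 1 and 268 in aged 2.

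The nuclei came from lumbar DRG of C57BL/6 mice and were sequenced as single nuclei by PIP-seq, where particles template droplets that each pair a nucleus with a barcode. The labels give 1 library of adult mice (3 months) and 2 libraries of aged mice (21 months), with no treatment and all labelled male. They do not state how many mice a library holds, and the text that describes the series gives the aged mice another age, so the sample labels were used. The study's methods name 2 suppliers of C57BL/6 mice and tie neither to a library, so age, supplier and library preparation cannot be told apart in the comparison of 1 adult with 2 aged libraries.

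The label of male mice went against the RNA in all 3 libraries. *Xist*, the RNA that coats the inactive X chromosome of female cells, stood at 1246 CPM (UMIs of the gene per 1000000 UMIs of the summed nuclei) in adult gated nuclei, 772 in aged 1 and 872 in aged 2. Of gated nuclei with 15000 or more UMIs, 92.5%, 82.5% and 89.0% held 5 or more *Xist* UMIs. UMIs of 4 Y-linked genes were found in 44.4%, 33.5% and 28.7% of the same nuclei, at summed levels of 21.6, 9.10 and 6.94 CPM. The animal section of the study's methods lists mice of the aged group's age as female, which also differs from the label. Sex was not used to describe any group, and its part in the age comparison was not tested.

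Non-peptidergic nociceptors end in the skin, where they respond to strong mechanical and chemical stimuli. They carry the GDNF family receptor Ret, bind the lectin IB4, and depend in development on the transcription factor Runx1. Mrgprd is their receptor for beta-alanine, P2rx3 is their ATP-gated channel, and the sodium channels Nav1.8 (*Scn10a*) and Nav1.9 (*Scn11a*) set their excitability. The family has further members, told apart by Mrgpra3 and Mrgprb4 or by the itch genes *Sst*, *Nppb*, *Osmr*, *Il31ra* and *Cysltr2*.

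The gate genes chose the nuclei, so their values are a description. *Mrgprd* was found in 71.4% of adult gated nuclei, 74.5% of aged 1 and 70.1% of aged 2, at 167, 110 and 100 CPM. In nuclei with satellite glial markers and without neuron markers (606, 91 and 47 nuclei), which should lack the gene, the shares were 0.825%, 2.198% and 2.13%. The median depth was 19606, 21748 and 30229 UMIs in gated nuclei and 3084, 3685 and 4534 in glial nuclei. *Lpar3*, a receptor for lysophosphatidic acid (LPA), was found in 64.0%, 61.3% and 61.6% of gated nuclei against 3.795% of adult glial nuclei and 0 of the 91 and 47 aged ones. *Grik1*, a kainate receptor subunit, held 91.0%, 86.3% and 86.2% of all gate UMIs, and it also stood at 5337 CPM in adult nuclei of a *Tafa4* gate, which is a gene that a further neuron class shares. *EU599041*, a non-coding RNA, was found in 3.22% of adult nuclei and in 38.7% and 39.6% of aged ones, which is a level of the rule itself and carries no test. *Il31ra*, counted against a nucleus, was still found in 92.3%, 88.3% and 84.3% of gated nuclei and in 55.1%, 50.5% and 57.4% of the glial nuclei.

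At the edge of the gate, 275, 94 and 72 nuclei passed with exactly 3 of the 6 genes, and *Mrgprd* was found in 37.8%, 45.7% and 41.7% of them. Nuclei that failed only for holding 2 of the 6 genes numbered 406, 148 and 118, with *Mrgprd* in 18.5%, 25% and 18.6%. *Mrgprd* is 1 of the 6 genes, so these shares describe the rule.

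The make-up of the gate was described beside 5 further neuron classes gated from lists of their own (5 or more UMIs from 2 or more genes, at least 2 times every other class list, outside the Mrgprd gate) (peptidergic, Sst, Trpm8, Tafa4 and Nxph1). In 491, 185 and 182 gated nuclei (63.2%, 55.6% and 67.9%), the gate genes other than *Grik1* held at least as many UMIs as the list of any other class, with *Gfra2* and *Il31ra* left out of those lists. They are called list-highest nuclei. These are the genes that chose the nuclei, so the share does not check the name of the gate, and *EU599041* among them went from 32 adult UMIs to 433 in aged 1 and 445 in aged 2. In 158, 102 and 47 nuclei (20.3%, 30.6% and 17.5%) the Nxph1 list led, which holds genes of large myelinated neurons such as *Nefh* and *Ntrk3*. The Tafa4 list, with *Th* and *Slc17a8* of low-threshold C fibres, led in 78, 12 and 22 nuclei (10.0%, 3.60% and 8.21%), and the peptidergic list in 43, 29 and 13. The nuclei are therefore called Mrgprd-gated by their rule, and some results are given also for the list-highest nuclei.

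**Figure D1:**
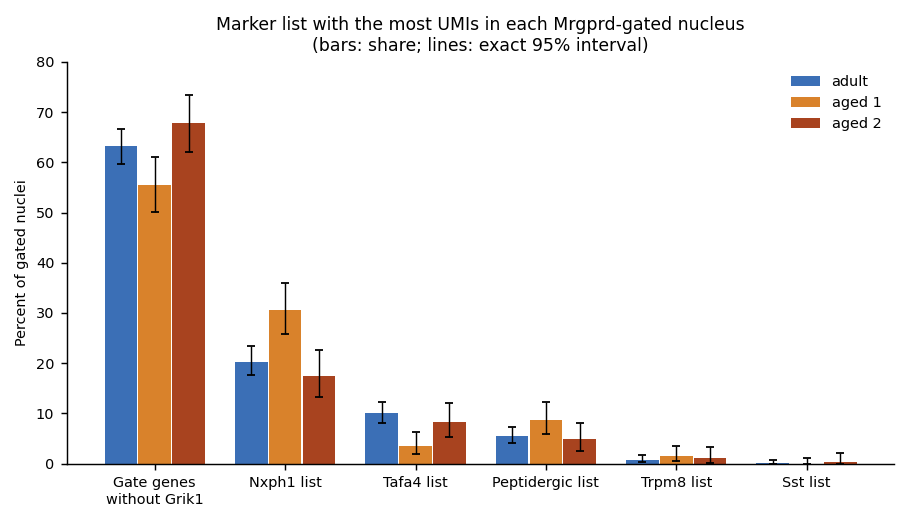
Share of Mrgprd-gated nuclei (percent, from 0) in which each marker list held the most UMIs, for the adult library and both aged libraries, with exact Clopper-Pearson 95% intervals that cover counting error only. The gate genes without Grik1 led in 63.2%, 55.6% and 67.9% of nuclei, and the Nxph1 list in 20.3%, 30.6% and 17.5%.

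Depth and other cells were taken per library before the comparisons. Total UMIs were 167664164, 95647106 and 69045987, of which the gated nuclei held 17164685, 11535309 and 9939390. Kept nuclei shared 1 barcode between the adult library and each aged library and 0 between the aged ones. Free RNA, taken from barcodes of 10 to 100 UMIs, was estimated from glial, fibroblast, vascular and immune markers to make up 20.6%, 24.3% and 25.5% of the gated sums. Satellite glial markers (10 of 10 found) summed to 404, 464 and 322 CPM in gated nuclei against 2227, 2235 and 1852 in free RNA, and Schwann cell markers (11 of 11 found) to 775, 817 and 640. Lymphocyte markers summed to 42.1, 31.1 and 22.8 CPM, with *Cd3e* at 0 in the adult library. Myeloid markers (7 of 7 found) went the other way, at 14.5, 24.7 and 18.1 CPM in gated nuclei and 133, 194 and 231 in free RNA. The Nxph1 list summed to 908, 817 and 745 CPM in gated nuclei and 2741, 4989 and 3696 in free RNA. For the peptidergic list these were 295, 334 and 274 against 1738, 2362 and 2596. The Tafa4 list, with *Gfra2*, was lower in free RNA, at 438, 306 and 422 against 868, 600 and 717. The part of free RNA in the leading lists was not tested.

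Gated nuclei made up 6.75% (exact 95% interval 6.29 to 7.22) of adult kept nuclei, 6.49% (5.83 to 7.2003) of aged 1 and 10.3% (9.13 to 11.5) of aged 2. Among neuronal nuclei, those with 5 or more UMIs from 3 or more pan-neuronal genes, the shares were 12.3%, 12.3% and 18.9%. Under these settings aged 1 matched the adult library within counting error and aged 2 lay above both. The aged mean of 15.6% ± 4.65 (SD, n = 2) of neuronal nuclei held the adult value within 1 SD. The aged to adult ratio was 1.24 among kept nuclei (exact permutation of the library labels, two-sided, p = 1.0) and 1.27 among neuronal nuclei (exact permutation p = 0.667). The smallest p that 1 against 2 libraries can give is 0.333, so this design could not pass 0.05. Among kept nuclei of more than 2000 genes the ratio turned to 0.865.

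The genes of the non-peptidergic identity list followed the name of the gate in part. Levels compare gated sums with the sums of the 5 other classes, and since the gate chose these nuclei they are a description with no test. Over all 15108 genes outside the gate at 1 CPM or more in each library, 517 (3.42%) stood above every other class in all 3 libraries, and 8 of 19 genes of the identity list at that level did. *Plxnc1*, a semaphorin receptor, stood at 584 CPM in the adult library, 554 in aged 1 and 547 in aged 2, against 251, 501 and 452 in the class nearest to it, the Sst gate. *Agtr1a*, an angiotensin receptor, stood at 62.1, 81.4 and 87.5 CPM against at most 6.2, 8.9 and 15.4 elsewhere, so that its gated levels did not overlap those of any other class. *Cd55*, a complement regulator, stood at 549, 609.5 and 585 CPM. *Gfra2*, *Acpp* and *Rasgrp1* stood higher in the Tafa4 gate, whose list holds *Gfra2*. *Gfra2*, the neurturin co-receptor, stood at 406, 361.5 and 363 CPM in gated nuclei and at 639.7, 538 and 595 in the Tafa4 gate.

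Among sodium channels, 2 of 13 stood above every other class in all libraries, beside 3.42% of all genes. *Scn10a* lay at 1794, 1421 and 1572 CPM against an other-class mean of 587, 586 and 629, and *Scn11a* at 795, 683 and 694 CPM against 190.4, 237 and 219.7. *Scn9a* (Nav1.7) lay at 964, 938 and 902 CPM, below the Tafa4 gate at 1216, 1137 and 1107 and above the Nxph1 gate at 431, 404 and 493.5. *Scn1a* and *Scn8a*, the channels of fast myelinated fibres, were lower in gated nuclei than the mean of the other classes in each library.

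Among TRP channels, *Trpc6* and *Trpa1* stood above every other class. *Trpc6*, a receptor-operated cation channel, lay at 95.02, 134.6 and 130.4 CPM against an other-class mean of 11.3, 18.1 and 16.8. *Trpa1*, the irritant receptor, lay at 29.0, 41.7 and 39.7 CPM against 18.6, 35.9 and 26.5 in the peptidergic gate. *Trpv1*, the capsaicin receptor of peptidergic nociceptors, was at 21.6, 33.1 and 26.3 CPM against 283, 252 and 257 in the peptidergic gate, which was chosen on it.

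The path from LPA receptors through Gq to protein kinase C had 5 of 22 listed genes above every other class (*Gnaq*, *Gnao1*, *Plcb3*, *Dgki* and *Prkcq*), beside 3.42% of all genes. *Lpar5*, an LPA receptor of the identity list, lay at 10.7, 12.3 and 18.9 CPM against an other-class mean of 1.13, 0.531 and 0.359. *Gnaq*, the G protein alpha subunit, lay at 1456, 1308 and 1399.8 CPM, and *Plcb3*, the phospholipase it activates, at 334, 301 and 273 CPM against a mean of 87.9, 108 and 101.4. *Dgki*, which clears diacylglycerol, lay at 4401, 3971 and 4254 CPM against 839, 943 and 851, and *Prkcq*, a kinase that diacylglycerol activates, at 309.7, 295 and 284 CPM against 14.6, 23.8 and 17.6.

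Of other families, the ectonucleotidase *Entpd3* was 1 of 16 purinergic genes outside the gate that stood above every other class, and *Kcnt1*, *Kcnk18* and *Kcnip2* were 3 of 37 potassium channels, both counts to be read beside the 3.42% of all genes. *Kcnk18*, the TRESK leak channel, lay at 22.6, 19.3 and 17.7 CPM against 4.64, 3.94 and 3.69. *Ptger3*, a prostaglandin E2 receptor, lay at 157, 141 and 141 CPM, and *Scg3*, a granin of dense-core vesicles, at 818, 674 and 628 CPM. Peptide genes on which the peptidergic gate was chosen lay lower in gated nuclei, *Tac1* at 36.1, 51.7 and 42.0 CPM against 754, 564 and 468 in the peptidergic gate and *Calca* at 181, 187 and 154 CPM against 1828, 1098 and 886.

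**Figure D2:**
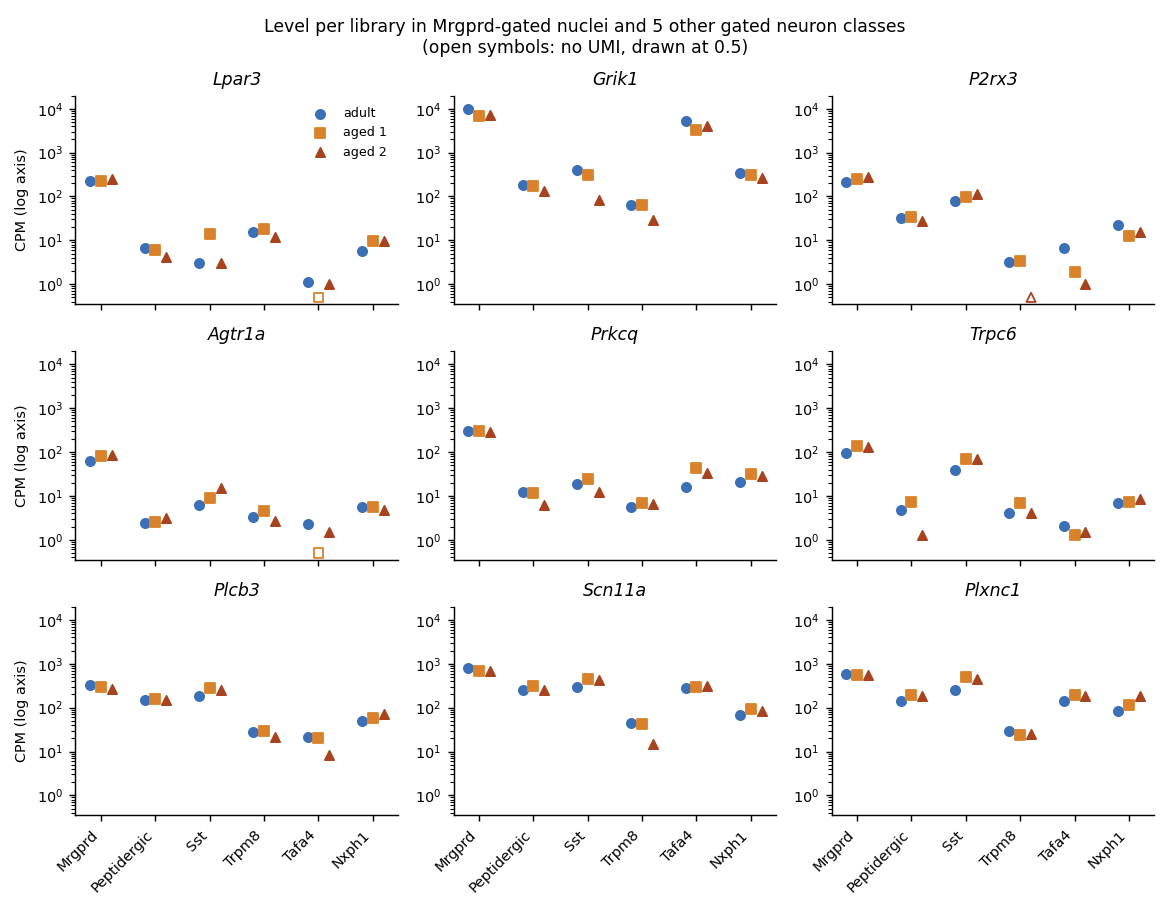
Level in CPM (log axis) of 9 genes in Mrgprd-gated nuclei and 5 other gated neuron classes, one symbol per library, with open symbols at 0.5 where a class held no UMI. Agtr1a lies at 62.1, 81.4 and 87.5 CPM in gated nuclei and at 15.4 CPM or less elsewhere, while Grik1 is also high in the Tafa4 gate.

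The 15 genes outside the gate, at 20 CPM or more in each library, whose lowest ratio to the other-class mean was largest were *Slc16a12*, *Agtr1a*, *2310002F09Rik*, *Prkcq*, *Hal*, *Fam167a*, *Ctxn3*, *Gm7967*, *Trpc6*, *Mdfic2*, *Hnf4g*, *F930017D23Rik*, *Ptgdr*, *Rspo2* and *Moxd1*. *Slc16a12*, a creatine transporter on chromosome 19 (34668403 to 34747289, minus strand, mm10), was at least 18.6 times the mean of the other classes, at 118, 146 and 159 CPM. *Rspo2*, a secreted Wnt agonist on chromosome 15 (43020794 to 43170826, minus strand), lay at 239, 315 and 318.5 CPM, and *Mdfic2* on chromosome 6 at 783, 710.2 and 758 CPM. *Ptgdr*, a prostaglandin D2 receptor, lay at 56.3, 70.2 and 72.3 CPM with a Tafa4 gate maximum of 18.0, 29.6 and 32.9.

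*Lpar3* is a gate gene, and it varied among the list-highest nuclei of 15000 or more UMIs (273, 124 and 107). They were split at low and high *Lpar3* counts after the values were seen, with no gap between the groups in the adult library, so the values are a description with no test. Nuclei with 0 or 1 *Lpar3* UMI numbered 49, 20 and 20 (17.9%, 16.1% and 18.7%), and those with 4 or more 198, 96 and 86 (72.5%, 77.4% and 80.4%). *Tenm1*, a teneurin adhesion protein, lay at 460.2, 517 and 705 CPM in the low group against 126, 163 and 134 in the high group, and *Osmr*, the oncostatin M receptor of itch neurons, at 54.7, 100.5 and 103 CPM against 8.56, 33.2 and 33.2. *Mrgpra3* lay at 10.2, 37.6 and 11.6 CPM against 1.43, 1.56 and 0.596. In the other direction *Lrrtm3*, a synaptic adhesion protein, lay at 45.8, 14.4 and 21.6 CPM in the low group and 207, 367 and 376 in the high group, and *Agtr1a* at 40.0, 35.4 and 26.6 against 97.6, 129 and 146. The direction of these genes was the same in each library, but they were picked after their values were seen, so this does not check the split. *Mrgpra3* rests on 16, 34 and 14 UMIs in the low group and 10, 9 and 3 in the high group.

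**Figure D3:**
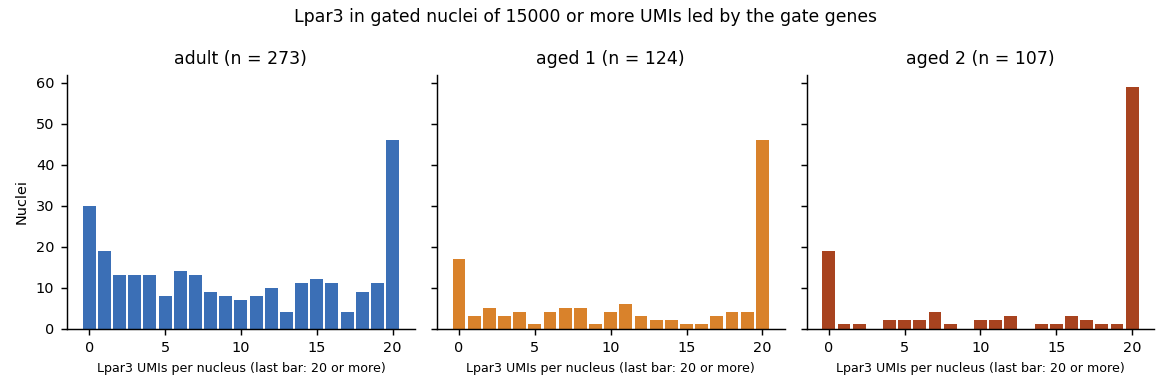
Number of list-highest nuclei with 15000 or more UMIs (y axis) by Lpar3 UMIs per nucleus (x axis, last bar 20 or more) in each library. Nuclei with 0 or 1 UMI number 49 of 273, 20 of 124 and 20 of 107, and 26, 8 and 1 nuclei hold 2 or 3.

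The age comparison asked which genes of the gated nuclei differed between the adult library and the aged libraries. The sums of each library entered the edgeR quasi-likelihood test, and a gene was called when its p, adjusted by Benjamini and Hochberg's method, was under 0.05. The lone adult library is assumed to vary like the aged ones, which leave 1 residual degree of freedom. Of 17885 genes tested, 2192 (12.3%) were called, 753 (4.21%) higher and 1439 (8.05%) lower in aged libraries. With library totals in place of the TMM scaling factors the median log2 fold change of all genes moved from 0.01 to 0.16. Of 17885 genes, 1269 were then called higher and 727 lower. DESeq2 called 103 higher and 377 lower of 15802 genes. A joint fit of all neuron classes called 45 higher and 364 lower of 18830. Nuclei thinned to 2000 UMIs gave 42 higher and 200 lower of 9627. In list-highest nuclei 1590 were higher and 2020 lower of 16266. List counts under these fits are to be read beside these counts over all genes. In edgeR, DESeq2, the joint fit and list-highest nuclei alike, 278 genes (39 higher, 239 lower) were called. After subtraction of the estimated free RNA no gene was called by edgeR, with 1947 (12.1%) at an unadjusted p under 0.05.

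Most listed genes of the neuronal cytoskeleton fell. Of 28 genes, 21 were lower in aged libraries (75%, against 8.05% of all genes) and 1 was higher, with a median log2 fold change of -0.62 against 0.01 over all genes. *Nefl*, the light neurofilament, fell from 1246 CPM in the adult library to 707 and 468 (log2 -1.24 ± 0.17 SE), and *Map1b*, a microtubule-associated protein, from 3523 to 2265 and 1783 (log2 -0.95 ± 0.18). *Tuba1a*, a tubulin, fell from 972 to 665 and 476 CPM, the kinesin motor *Kif1a* from 908 to 603 and 592, and the axon initial segment anchor *Ank3* from 3502 to 2305 and 2457. *Sptbn4*, a spectrin of nodes and initial segments, was the gene that rose, from 57.0 to 87.4 and 99.0 CPM. The summed list stood at 0.703 of the adult level in gated nuclei and at 0.746 to 0.840 in the 5 other classes, and at 1.41 in free RNA. DESeq2 called 14 of the 28 lower, the joint fit 3, list-highest nuclei 24 and the fit after free RNA subtraction 0.

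Respiratory chain genes of the nuclear genome and ribosomal protein genes were also lower. Of 21 respiratory chain genes 13 fell (61.9%, against 8.05% of all genes, median log2 -0.63), among them *Atp5g1* (77.8 to 45.6 and 29.0 CPM), *Cycs* (50.9 to 29.9 and 20.1) and *Ndufa4* (160.4 to 100.4 and 64.3). Of 43 ribosomal protein genes 18 fell (41.9%, against 8.05% of all genes, median log2 -0.40), among them *Rplp1* from 189 to 130.2 and 91.5 CPM. Aged 2 lay below aged 1 for each of these named genes. The summed respiratory chain list stood at 0.744 of the adult level in gated nuclei and at 0.725 to 0.970 in the 5 other classes. For the ribosomal protein list these values were 0.823 and 0.878 to 1.093. After free RNA subtraction *Ndufa4* kept 0 UMIs in each library. *Atp5g1*, *Cycs* and *Rplp1* kept 128, 142 and 542 adult UMIs and 0 in both aged libraries. With library totals the calls were 4 of 21 and 2 of 43, beside 727 lower of 17885 over all genes. DESeq2 called 4 and 3 (377 of 15802 over all genes) and the joint fit 2 and 0 (364 of 18830). Nuclei thinned to 2000 UMIs gave 0 and 1 (200 of 9627), and the fit after free RNA subtraction 0 and 0. The median share of *Malat1* was 3.95% in adult gated nuclei and 1.45% and 1.53% in aged ones, and mitochondrial transcripts summed to 1622, 1905 and 1099 CPM, highest in aged 1 and lowest in aged 2. The part of both in the result was not tested. By edgeR the heat shock chaperones were also lower, *Hsp90ab1* from 1424 to 867 and 581 CPM and *Hspa8* from 790.4 to 559.8 and 366, and of the 23 immediate early and heat shock genes 7 were lower (30.4%, against 8.05% of all genes) and 1 higher (4.35%, against 4.21%). Library totals called 3 of them lower, and DESeq2, the joint fit, thinned nuclei and free RNA subtraction 0. Their summed list stood at 0.605 of the adult level in gated nuclei and at 0.653 to 1.003 in the 5 other classes.

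**Figure D4:**
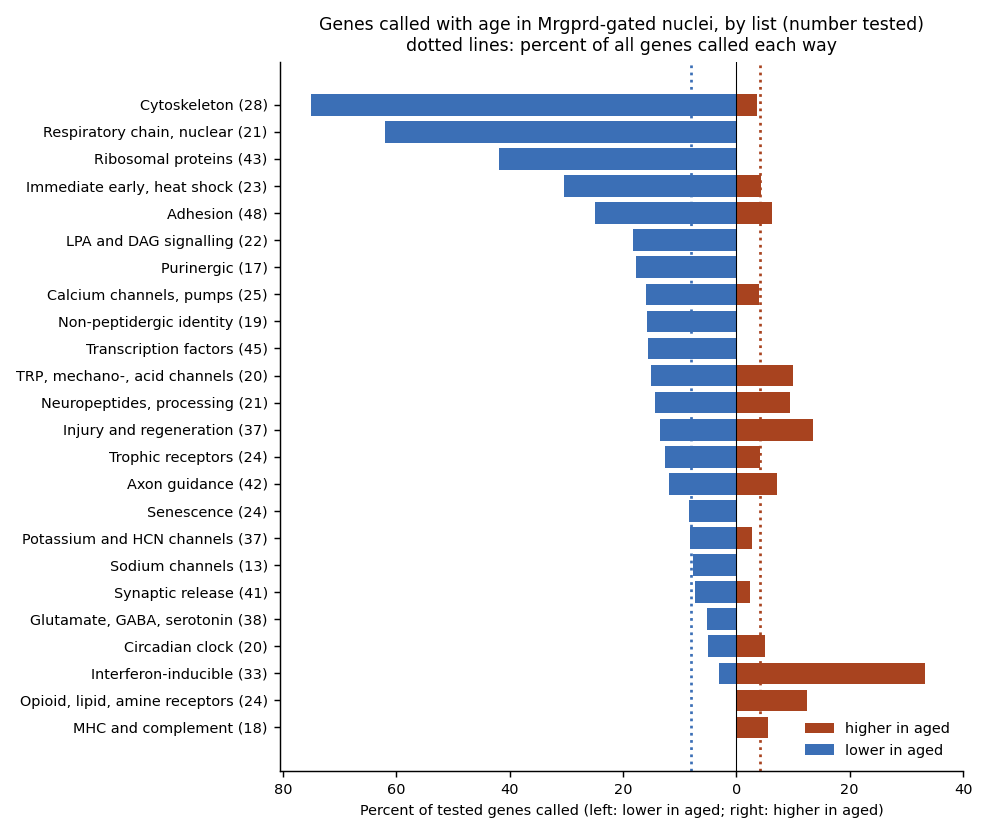
Percent of tested genes per list that were called lower (left of 0) or higher (right of 0) in aged Mrgprd-gated nuclei by edgeR at adjusted p under 0.05, with the number tested in parentheses. Dotted lines mark 8.05% lower and 4.21% higher over all genes. The cytoskeleton list reaches 75% lower and the interferon-inducible list 33.3% higher.

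Of 33 interferon-inducible genes, 11 were higher in aged libraries (33.3%, against 4.21% of all genes) and *Ifit1* was lower, with a median log2 fold change of 0.42. The summed list stood at 1.39 of the adult level in gated nuclei, 1.18 in list-highest nuclei, 2.46 in the Nxph1 gate and 1.40 in free RNA. *Nlrc5*, the transactivator of MHC class I genes, rose from 6.00 to 16.1 and 13.4 CPM (log2 1.15 ± 0.28) and *Ifit2* from 14.9 to 28.5 and 31.5 (log2 0.86 ± 0.22). The guanylate-binding protein genes were higher in aged 1 than in aged 2, *Gbp2* at 1.11, 8.58 and 2.62 CPM and *Gbp4* at 0.583, 5.11 and 1.11. Their free RNA moved in the same order, *Gbp2* at 7.51, 38.7 and 16.7 CPM, and the myeloid markers of gated nuclei were likewise highest in aged 1 (14.5, 24.7 and 18.1 CPM). In list-highest nuclei the myeloid markers summed to 14.4, 12.6 and 15.5 CPM. After free RNA subtraction 0 of 24 interferon-inducible genes were called and their median log2 fold change was 0.42, with 0 UMIs of *Gbp2* left in each library, while *Ifit2* kept 233, 294 and 269 UMIs and *Nlrc5* 68, 135 and 93. DESeq2 called 1 of the 33 genes, *Tgtp2*, and the joint fit called 0. In list-highest nuclei 3 were called higher, to be read beside 1590 of all 16266 genes tested there. Of 18 MHC and complement genes 1, *C4b*, was higher (5.56%, near the 4.21% of all genes), at 4.31, 15.4 and 9.05 CPM. Library totals called 3 of them higher and the fit after free RNA subtraction 0, with 14, 48 and 0 UMIs of *C4b* left.

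In the identity list, 3 of 19 genes were lower (*Otoa*, *Tmem233* and *Runx1*, 15.8% against 8.05% of all genes) and 0 higher. DESeq2 and the joint fit each called 1 of the 19, and thinning and free RNA subtraction left 0. *Runx1* fell from 727 to 578 and 584 CPM (log2 -0.47 ± 0.17, edgeR adjusted p = 0.0461, DESeq2 adjusted p = 0.118). The sodium channel genes *Scn10a*, *Scn11a* and *Scn9a* did not pass. Among TRP, mechanosensitive and acid-sensing channels, *Piezo2*, the touch channel, fell from 1962 to 1391 and 1407 CPM (log2 -0.64 ± 0.18), *Trpm3*, a heat sensor, from 1468 to 1029 and 936, and *Asic2* from 2851 to 2157 and 2175. *Trpc5* and *Piezo1* rose. These were 3 of 20 lower (15%, against 8.05% of all genes) and 2 higher (10%, against 4.21%), and the calls were 3 and 1 in DESeq2, 1 and 0 in thinned nuclei and 0 and 0 in the joint fit and after free RNA subtraction. The mean of the other classes was also lower, at 1425, 956 and 884.5 CPM for *Trpm3* and 1509, 973.5 and 1071 for *Piezo2*.

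In the LPA list 4 of 22 genes were lower (18.2%, against 8.05% of all genes) and 0 higher, with 4 lower in DESeq2, 1 in the joint fit and 0 of 21 after free RNA subtraction. *Enpp2*, which encodes autotaxin, the enzyme that makes LPA, fell from 99.4 to 20.9 and 17.9 CPM (log2 -2.51 ± 0.18). In free RNA it lay at 509, 213 and 223 CPM, and the estimated free RNA took up the whole of its gated level, with 0 UMIs left in each library after subtraction. It passed in the 13 age fits that could test it, which leave out the one after free RNA subtraction. *Plcb1*, *Dgkh* and *Dgkz* were the others. Opioid and amine receptors had 3 of 24 genes higher (12.5%, against 4.21% of all genes), *Oprm1* (90.0 to 154 and 135 CPM), *Oprd1* (9.61 to 14.6 and 21.1) and the histamine receptor *Hrh1* (3.26 to 8.50 and 8.85), none of which DESeq2 called. Of 7 itch genes tested 3 were higher (*Osmr*, *Cysltr2* and *Nts*, 42.9% against 4.21% of all genes) and 0 lower. DESeq2 called 2 higher, the joint fit 1 and the fit after free RNA subtraction 0, with 0 UMIs of *Nts* left in each library. *Il31ra*, which the gate counted against a nucleus and which was left out of the test, lay at 388, 235 and 196 CPM, and with it the summed list stood at 444, 335 and 291 CPM. *Osmr* rose from 16.4 to 42.8 and 44.7 CPM (log2 1.27 ± 0.21) and *Cysltr2*, a leukotriene receptor, from 7.86 to 19.4 and 22.6 (log2 1.27 ± 0.25), both called by DESeq2. In the other-class mean, led by the Sst gate that was chosen on both, *Osmr* went from 87.0 to 146 and 149.6 CPM and *Cysltr2* from 49.6 to 107 and 121, and free RNA of *Osmr* lay at 18.7, 38.3 and 43.95 CPM. *Mrgpra3*, the chloroquine receptor of a neighbouring itch class, rose from 4.19 to 10.1 and 11.9 CPM by edgeR and did not pass with DESeq2 (adjusted p = 0.208) or in list-highest nuclei (adjusted p = 0.277).

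Among secreted factors, receptors and regulators, *Nmb*, the peptide neuromedin B, fell from 102 to 59.1 and 47.2 CPM (log2 -1.09 ± 0.17), *Ntrk2*, the BDNF receptor, from 97.5 to 55.7 and 43.3, and *P2ry14*, a UDP-glucose receptor, from 10.3 to 3.55 and 2.62. Lower and higher calls were 3 and 2 of 21 neuropeptide genes, 3 and 1 of 24 trophic receptors and 3 and 0 of 17 purinergic genes, beside 8.05% and 4.21% of all genes. With library totals they were 2 and 0, 2 and 2, and 1 and 0. Of 45 transcription factors 7 were lower (15.6%, against 8.05% of all genes) and 0 higher, and 4 were lower with library totals, 3 in DESeq2, 1 each in the joint fit and thinned nuclei and 0 after free RNA subtraction. The list holds *Klf7*, a regulator of sensory neuron growth, at 1489, 990.3 and 1006 CPM (log2 -0.73 ± 0.17). The injury list had 5 of 37 higher and 5 lower (13.5% each, against 4.21% and 8.05% of all genes), and the higher calls dropped to 1 with library totals and to 0 in DESeq2, the joint fit, thinned nuclei and after free RNA subtraction. Its members *Sprr1a* (0, 4.33 and 0.101 CPM), *Npy* (0, 2.34 and 0.101) and *Atf3* (1.86, 10.2 and 2.41) were high in aged 1, and in aged 2 lay within 1 CPM of the adult library. The adhesion list had 12 of 48 lower (25%, against 8.05% of all genes) and 3 higher (6.25%, against 4.21%). Its lower and higher calls were 4 and 3 with library totals, 3 and 1 in DESeq2, 1 and 0 in the joint fit and 0 and 0 after free RNA subtraction. Among its genes were *Cntn5* at 111, 41.4 and 60.0 CPM and *Cntnap4* at 91.5, 170.2 and 198 CPM.

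Beside 8.05% lower and 4.21% higher over all genes, lower and higher calls in further lists were 3 and 1 of 37 potassium channels, 4 and 1 of 25 calcium channels and pumps, 2 and 0 of 38 glutamate, GABA and serotonin receptors, 3 and 1 of 41 synaptic release genes, 5 and 3 of 42 axon guidance genes, 2 and 0 of 24 senescence genes and 1 and 1 of 20 clock genes. The joint fit called 1 synaptic release gene lower and no other gene of these 7 lists, and free RNA subtraction left 0. Axon guidance genes had 0 lower and 3 higher with library totals and 0 and 1 in DESeq2, and senescence genes 1 and 2 with library totals and 0 and 0 in DESeq2. In list-highest nuclei, where more genes were called (9.77% higher and 12.4% lower over all genes), lower calls were 16 of 21 respiratory chain, 27 of 43 ribosomal protein, 11 of 22 immediate early and heat shock, 5 of 19 identity, 11 of 22 LPA, 16 of 40 transcription factor, 7 of 36 injury and 14 of 48 adhesion genes.

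Single genes with the largest decrease were led by *Olfr292*, an olfactory receptor gene on chromosome 7 (86688330 to 86697507, plus strand), with 166 UMIs in the adult library (9.67 CPM) and 0 in both aged ones, lower by at least 69.2-fold if the aged sums are set to 3 UMIs in all. It was nearly missing from the other classes (0.0192, 0 and 0 CPM on average) and from free RNA (0.158, 0.343 and 0.211 CPM). *Bc1*, the small cytoplasmic RNA of dendrites on chromosome 7 (144914470 to 144914637, plus strand), fell 58.7-fold, from 714 to 16.4 and 7.95 CPM. The other classes held 751, 16.6 and 9.14 CPM of *Bc1* and free RNA 1258, 22.9 and 16.6, so it was lower in all 3 sources. Lower too were *Gt(ROSA)26Sor* (21.3, 0.607 and 0.604 CPM), *Dsp* (15.7, 0.433 and 0.503), *Mfap5* (76.8, 5.46 and 4.23), *Tspan33* (30.4, 1.47 and 2.52) and *Mylk*, the myosin light chain kinase (683, 52.3 and 49.1), each of which was also lower in the other-class mean. Free RNA of *Dsp* lay at 574, 0.686 and 1.76 CPM, and 0 of its adult UMIs were left after free RNA subtraction. *Dnali1* fell 14.8-fold, from 9.09 to 0.520 and 0.704 CPM, and *Map3k7cl* 13.9-fold, from 9.90 to 0.520 and 0.905 CPM. Their other-class means fell too, from 5.82 to 0.801 and 0.253 CPM and from 10.5 to 0.734 and 0.372 CPM. *Cyb5r2* fell from 7.52 to 0.694 and 0.302 CPM while the other classes held 1.53, 1.09 and 1.52.

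Among the largest increases, *Igha* (0, 5.03 and 5.43 CPM, at least 29.9-fold higher) and *Igkc* (0.524, 5.72 and 7.14) encode immunoglobulin chains of B lineage cells. Free RNA of *Igha* and *Igkc* went from 1.58 to 69.8 and 107 and from 15.7 to 110.1 and 161 CPM, above the level in gated nuclei, and *Lmx1a* (1.11, 4.77 and 3.82 CPM) had free RNA of 4.98, 106 and 87.8. *Csprs* (0.233, 10.7 and 14.2 CPM, log2 5.54 ± 0.52) had low free RNA of 0.711, 2.31 and 3.31 CPM, and it has near-identical copies in the genome that counting could split. It was higher in aged libraries in the other-class mean too, at 0.348, 1.70 and 1.82 CPM. *Timd2* (3.15, 14.04 and 22.1), *Vmn2r111* (1.05, 5.55 and 5.13), *Ankrd60* (1.69, 7.28 and 8.95), *Ccbe1* (3.26, 13.6 and 13.5), *Sp140* (1.40, 4.25 and 6.24) and *Gbp6* followed. In the other-class mean *Timd2* lay at 3.32, 9.89 and 20.2 CPM, *Ankrd60* at 1.57, 3.73 and 7.79 and *Gbp6* at 2.16, 10.2 and 5.72. There *Vmn2r111* lay at 0.719, 0.838 and 0.754 CPM, *Ccbe1* at 6.87, 11.8 and 10.5 and *Sp140* at 1.72, 2.96 and 2.81. *Alkal2*, a ligand of the ALK receptor on chromosome 12 (30884322 to 30893854, plus strand, overlapped by *Acp1* on the other strand), rose from 6.87 to 23.7 and 27.2 CPM (log2 1.73 ± 0.25). Its other-class mean lay at 5.78, 11.3 and 7.79 CPM and its free RNA at 6.32, 14.3 and 19.2.

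**Figure D5:**
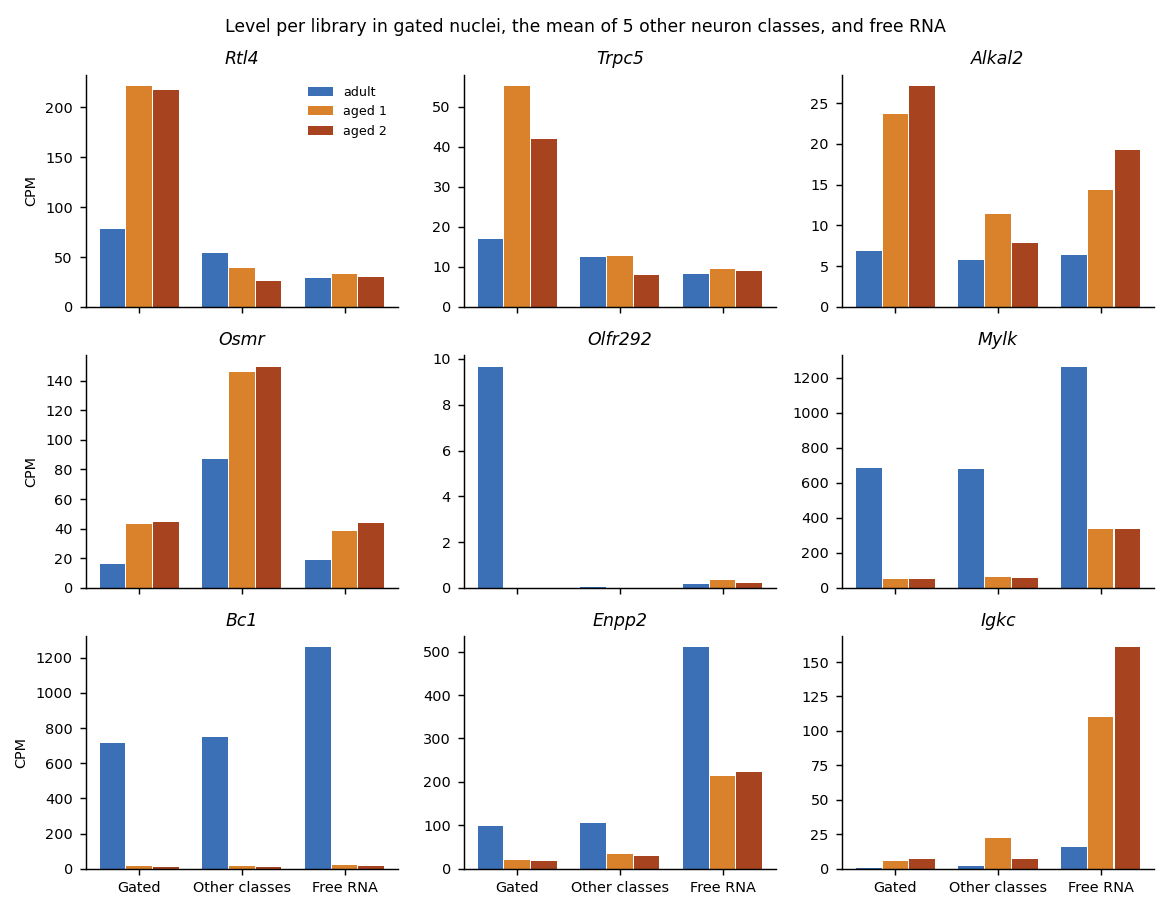
Level in CPM (linear axis from 0) of 9 genes per library in Mrgprd-gated nuclei, in the mean of 5 other neuron classes and in free RNA. Rtl4 and Trpc5 are higher in both aged libraries in gated nuclei and stay within 1.5 times of the adult value in free RNA, Olfr292 is present in adult gated nuclei, and Bc1 and Mylk are lower in aged libraries in all 3 sources.

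Whether the gated nuclei differed with age from the other neuron classes was tested as an extra age term, with the library as a block, over the sums of 6 classes. Of 18830 genes, 0 (0.0%) passed in edgeR, the lowest adjusted p was 0.173, and 447 (2.37%) had an unadjusted p under 0.05. No list gene passed. Beside 2.37% over all genes, the genes at an unadjusted p under 0.05 were 1 of 28 in the cytoskeleton list (3.57%), 5 of 42 in axon guidance (11.9%), 2 of 19 in the identity list (10.5%) and 2 of 14 non-coding RNAs (14.3%), and these lists were singled out after their values were seen. Leaving out the filter on low counts called 27 genes, and summing the other classes into 1 called 14.

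The lowest of those adjusted p belonged to *Rtl4*, and with its neighbour *Trpc5* it was singled out after the values were seen. *Rtl4*, a gene derived from a retrotransposon Gag protein (chromosome X, 144688907 to 145122411, plus strand), lay at 78.5 CPM in adult gated nuclei and at 222 and 218 in aged ones (age log2 1.33 ± 0.18 in edgeR). The Tafa4 gate held 97.5, 111 and 72.8 CPM of *Rtl4*, the Nxph1 gate 63.4, 43.1 and 31.5, the Sst gate 84.3, 19.0 and 13.3, and the peptidergic and Trpm8 gates under 15 CPM. *Trpc5*, a calcium-permeable channel that responds to cold (144381671 to 144688180, minus strand, overlapped by *Trpc5os* on the other strand), lay at 17.1, 55.2 and 41.9 CPM (age log2 1.36 ± 0.21) against an other-class mean of 12.5, 12.6 and 7.87. The Tafa4 gate held 20.6, 41.2 and 17.9 CPM of *Trpc5* and so was higher in aged 1 as well, while the Nxph1 gate held 17.3, 12.1 and 9.48. In free RNA neither gene moved by more than 1.5 times, at 29.0, 32.5 and 29.5 CPM for *Rtl4* and 8.30, 9.34 and 9.09 for *Trpc5*. In list-highest nuclei *Rtl4* lay at 86.3, 279 and 278 CPM and *Trpc5* at 16.8, 75.2 and 51.5. The extra age term was 2.29 for *Rtl4* (edgeR adjusted p = 0.173) and 1.92 for *Trpc5* (adjusted p = 0.408), and over 9 alternatives of each, edgeR adjusted p ran from 7.57e-10 to 1 (3 passed) and from 7.45e-05 to 1 (2 passed).

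The genes lie head to head. Their starts are 727 bases apart in GENCODE M21 and 29 in RefSeq (GRCm38.p6), so a single promoter window holds both RefSeq starts. It is shown because both genes, picked after their values were seen, were higher in aged gated nuclei. Whether they are controlled together was not tested. The window runs over chrX:144688131-144688430 on the minus strand, 5′ to 3′ for *Trpc5*, and capitals run from the RefSeq start of *Rtl4* (position 222) to that of *Trpc5* (position 251).
Trpc5: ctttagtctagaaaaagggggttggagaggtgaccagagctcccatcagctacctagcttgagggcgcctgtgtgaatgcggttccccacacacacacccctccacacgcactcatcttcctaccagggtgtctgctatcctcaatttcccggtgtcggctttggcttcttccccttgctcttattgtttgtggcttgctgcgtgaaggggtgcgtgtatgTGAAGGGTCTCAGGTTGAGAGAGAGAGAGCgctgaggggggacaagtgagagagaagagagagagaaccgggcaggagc
No factor was searched for in these letters, and no source says that counting used the strand, so UMIs of *Trpc5* and *Trpc5os* in their overlap cannot be told apart.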

How the data were processed

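The authors counted UMIs with Pipseeker, per the methods, and deposited them as unnormalized counts for each barcode. The labels give mm10. The annotation behind the counts is not given in the sources used here. Positions are those of GENCODE M21 (99.6% of 32227 gene identifiers matched). The gate, the lists and the members were chosen with earlier results of these data known. Nuclei are not replicates, so UMI counts were summed per library and class. Other classes needed 5 or more UMIs from 2 or more of their list, at least 2 times any other list. Doublets were not called, and whether a leading list of another class marks a mixed nucleus or free RNA was not tested. Sums were tested with edgeR 4.0.16 (TMM, filterByExpr) in R 4.3.3, with DESeq2 1.42.0 as an alternative, and shares with an exact permutation test. Genes named singly were, among called genes with 100 or more UMIs and both aged libraries on the same side of the adult one, the 12 largest increases and 12 largest decreases, predicted genes and genes of the rule left out, plus members of the lists and the 15 genes by level. Some of these genes are not reported here. The study calls the libraries biological replicates. In the age comparison, p-values rest on the spread between the aged libraries. Those of the extra age term and of the joint fit also rest on differences among classes of the same libraries, which are not independent replicates. On simulated sums for the age comparison, edgeR recovered 48 of 50 genes raised 2-fold and 46 of 50 lowered 2-fold, with 15 false calls among 209. For the extra age term it recovered 40 of 50 and 34 of 50, with 11 false calls among 185. The simulation gave every gene the same dispersion, added no free RNA and changed only genes of higher counts. It therefore cannot give the error rate of the real comparison.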

Additional observations from a re-analysis of the deposited data

How the results depend on the processing

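No paired analysis was possible, because replicate numbers only count libraries within a group and do not match the adult library with an aged one. Against 2192 genes called with age, relative log expression factors, no filter on low counts, a minimum of 2000 genes, leaving out nuclei with glial RNA, a stricter gate (10 or more UMIs from 4 or more genes) and leaving out *Malat1* and mitochondrial genes each gave a count within 1.5 times. DESeq2 called 480, the joint fit of all classes 409, nuclei thinned to 2000 UMIs 242, free RNA subtraction 0, nuclei without a *Malat1* minimum 1362 and list-highest nuclei 3610, of which 1890 were also among the 2192. Library totals called 1996 genes, 63.6% of them higher against 34.4%. Of called genes, 2186 kept their direction without either aged library (2186 to 2186). These fits reuse the adult library and an aged library of the fit that made the calls. The kept direction was therefore largely set in advance. The extra age term passed for 0 genes, for 27 with no filter on low counts, for 1 in thinned nuclei and for 14 against the summed other classes. The aged to adult ratio of shares ran from 0.962 to 1.52 among kept nuclei and from 1.00 to 1.54 among neuronal nuclei without either aged library. For kept nuclei it fell to 0.865 over 2000 genes and reached 1.44 with no *Malat1* minimum. For the 26 genes named for the size of their change or after their values were seen, 278 values of tests under an alternative stayed past the threshold and 42 did not, and none reversed. All 52 values without an aged library, which carry no test, kept their direction. Genes were named for size only with both aged libraries on the same side of the adult one, so this was largely set in advance. The others were picked after their values were seen. For the 123 called genes of the lists, 984 values stayed past it and 573 did not. The cause of these changes was not tested.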
